A study of Mus musculus with 4 samples.

Results

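Th17 regulators and IL-17 receptor genes were followed in Treg cells of the mouse spleen, the CD4+ Foxp3+ regulatory cells that hold other immune cells in check. The members were 9 genes, Rora, Ahr, Batf, Maf, Il23r, Il17a, Il17f, Il17ra and Il17re, and every probe set that the platform annotation gives to one of them alone was read by itself. A probe set is a group of short array probes for one transcript, and its signal is a brightness on a linear scale, from MAS5 per the submitters' processing notes. That gave 24 probe sets out of 45101 on the array, for 7 of the 9 genes. No probe set in the annotation used here is named for Il23r or Il17f, whose signals were not analysed here.

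The series holds 2 arrays titled Foxo1/3-deficient and 2 arrays titled wild-type, all of strain C57BL/6, with a pair number, 1 or 2, shared by 1 array of each genotype. Foxo1 and Foxo3 are transcription factors that act as brakes on T cell activation until AKT signalling moves them out of the nucleus. In the labels the titles of the deficient samples name both genes and the genotype entry names Foxo1 only; the titles set the groups. No label used here gives the Cre or other driver of the deletion, the age of the animals or the sort that yielded the cells. Foxo1 itself was higher on both arrays of the labelled-deficient group, with 6949 and 6697 signal units there against 2383 and 1254 on wild-type arrays at its brightest probe set (log2 difference 1.97 ± 0.30 SE, limma adjusted p = 0.0280). Its other tested probe sets were higher too, by 2.21 for 1416982_at (adjusted p = 0.00839) and 2.19 for 1416981_at (0.0128). Without the filter on dim probe sets the call held for 1416982_at (0.0457) and was lost for the brightest (0.125) and for 1416981_at (0.0634). Foxo3 read 1424 and 1308 on the labelled-deficient arrays against 1876 and 2635 on the wild-type arrays at 1434831_a_at (-0.70 ± 0.25, limma adjusted p = 0.342; 0.0813 with the pair number as a replicate block). At 1434832_at it read 554 and 521 on the labelled-deficient arrays against 861 and 1001 on the wild-type arrays (-0.77 ± 0.26, 0.288; 0.0704 with the block). The groups overlapped at neither, and neither passed. The Foxo1 signal thus goes against the label and the Foxo3 values lie in its direction, where the probe sets lie relative to the deleted parts is unknown here, and each direction below is that of the arrays as labelled. Foxp3 read 6504 and 6056 on the labelled-deficient arrays and 6540 and 6285 on the wild-type arrays, and the 8 Treg cell and T cell markers read were all well above the filter on dim probe sets, with none past the threshold.

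Th17 cells are helper T cells that make the cytokines IL-17A and IL-17F and defend mucosal and skin surfaces. The nuclear receptor gene Rora, together with Batf, Maf and the ligand-activated factor gene Ahr, set up this programme, and the receptor for IL-23, encoded in part by Il23r, keeps it going. The same factors are also used by activated Treg cells in tissues. IL-17A and IL-17F bind receptors that contain the chain encoded by Il17ra, and this chain pairs with the product of Il17re to bind IL-17C.

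Il17re, the receptor chain gene, and Ahr were each lower on the labelled-deficient arrays at 1 probe set past the threshold, by 9.36-fold and 3.03-fold. The tested probe sets of Rora and Maf had log2 differences from -1.29 to -0.72 and from -1.13 to -0.85, none of which passed without the pairs and 4 of each of which passed with them. Il17a was dim on all arrays with a difference near 0, and Il17ra had differences above 0 that did not pass. In bulk RNA such as this, fewer cells of a type and less RNA per cell cannot be told apart. Of the 24 probe sets 20 passed a filter on low signals and were tested. Of these, 2 were lower and 0 were higher at a Benjamini-Hochberg adjusted p under 0.05 (limma on log2(signal + 17), adjusted over all 27022 probe sets tested). Over all tested probe sets 0.529% were called lower and 0.633% higher. With the pair number as a replicate block 11 of the 20 were lower and 0 higher, where 2.61% of all tested probe sets were lower and 2.52% higher. At an unadjusted p under 0.05, 15 of the 20 were lower and 0 higher, where 5.05% of all tested probe sets were lower and 5.58% higher. A p that misses the threshold with 2 arrays a group does not show that the groups were alike. The 20 had a median log2 difference of -0.99, against 0.04 over all tested probe sets. Several of these probe sets read the same transcript, so they are not independent of each other.

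Il17re encodes the receptor chain for IL-17C, and all 3 of its probe sets were tested. Probe set 1426566_s_at read 84.6 and 83.9 on the labelled-deficient arrays, against 1190 and 728 on the wild-type arrays. Both labelled-deficient arrays thus lay far below both wild-type arrays, with nearly the same signal as each other. The difference was -3.23 ± 0.34 (SE) on the log2(signal + 17) scale, or 9.36-fold lower (limma adjusted p = 0.00730), and it passed under all 13 alternative settings tried, at -3.58 to -2.65. Probe set 1452109_at, annotated from the same accession, read 171 and 67.5 on the labelled-deficient arrays, against 840 and 489 on the wild-type arrays. The groups did not overlap, and the difference of -2.39 ± 0.45 missed the threshold (adjusted p = 0.0540) but passed with the replicate block (0.00124). The third, 1439357_at, read 53.1 and 31.2 on the labelled-deficient arrays, against 134 and 119 on the wild-type arrays. It was lower in each pair, at 0.397 and 0.262 of the wild-type signal, with a difference of -1.30 ± 0.38 that did not pass in either fit (adjusted p = 0.197, and 0.0998 with the block). Its mean of 42.2 on the labelled-deficient arrays was close to the filter, which stood at a signal of about 40.5.

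Il17ra encodes the chain shared by the receptors for several IL-17 cytokines, and both of its differences were above 0. Its brighter probe set, 1420905_at, read 2955 and 5038 on the labelled-deficient arrays, against 2146 and 3395 on the wild-type arrays. The groups overlapped, since the array of pair 2 was the brighter one in each genotype, and within the pairs the labelled-deficient signal was 1.38 and 1.48 times the wild-type signal. The difference was 0.51 ± 0.32 (limma adjusted p = 0.710), with a 95% interval of -0.23 to 1.25. Probe set 1420904_at read 344 and 475 on the labelled-deficient arrays, against 291 and 265 on the wild-type arrays, a difference of 0.52 ± 0.31 (adjusted p = 0.678). Here the groups did not overlap, but neither Il17ra probe set passed in either fit (0.123 and 0.408 with the block).

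Il17a, the gene of the cytokine that gives Th17 cells their name, was close to the floor of the tested signals. It read 52.3 and 48.9 on the labelled-deficient arrays, against 52.7 and 50.4 on the wild-type arrays. All 4 values lay within a few units of each other, and the difference was -0.02 ± 0.37 (limma adjusted p = 0.994). The 95% interval ran from -0.87 to 0.83, so these arrays do not exclude differences inside that interval.

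**Figure D1:**
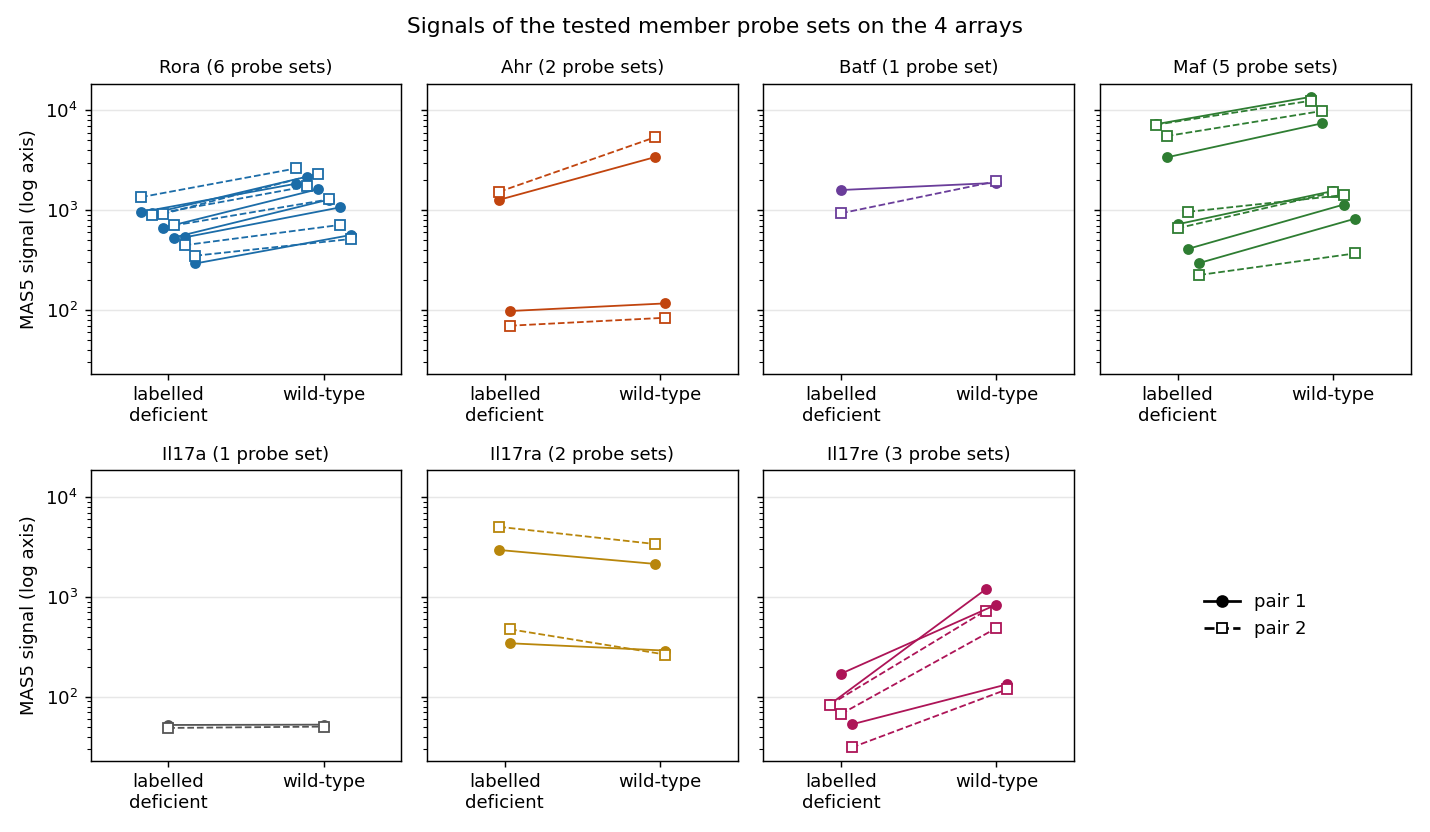
MAS5 signal (log axis) of each tested member probe set on the 4 arrays, labelled-deficient left and wild-type right, with a line joining the arrays of pair 1 (filled circles, solid) or pair 2 (open squares, dashed). The lines of Il17re 1426566_s_at and 1452109_at climb most steeply towards wild-type. Those of the dimmest Il17re probe set, Rora, Maf and the bright Ahr probe set climb less. Il17a is flat near 50.6 on labelled-deficient and 51.6 on wild-type arrays, and the lines of Il17ra slope the other way.

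Ahr encodes the aryl hydrocarbon receptor, a factor switched on by dietary, microbial and pollutant ligands that Th17 cells and gut Treg cells use. Its bright probe set, 1422631_at, read 1272 and 1531 on the labelled-deficient arrays, against 3394 and 5357 on the wild-type arrays. The groups did not overlap, and within the pairs the labelled-deficient signal was 0.375 and 0.286 of the wild-type signal. The difference was -1.60 ± 0.27, or 3.03-fold lower (limma adjusted p = 0.0415; 0.000827 with the replicate block). This call was lost without the filter (0.144), without the intensity trend (0.136), with arrays centred on their medians (0.0589), without labelled-deficient replicate 1 (0.106) and without wild-type replicate 2 (0.0942). The dim probe set 1450695_at, annotated from the same accession, read 98.0 and 69.9 on the labelled-deficient arrays and 117 and 83.9 on the wild-type arrays. Its groups overlapped and its difference of -0.22 ± 0.37 did not pass (adjusted p = 0.943), so the Ahr result rests on 1 probe set.

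Rora, which encodes the nuclear receptor ROR-alpha, had 9 probe sets, of which 6 were tested. On each of the 6 both labelled-deficient arrays lay below both wild-type arrays. The probe set 1424034_at, with the largest difference among them, read 668 and 917 on the labelled-deficient arrays, against 1625 and 2326 on the wild-type arrays. It stood at 0.411 and 0.394 of the wild-type signal within the pairs, a difference of -1.29 ± 0.29 (limma adjusted p = 0.0925; 0.00307 with the replicate block). The brightest, 1436325_at, read 958 and 1353 on the labelled-deficient arrays, against 1847 and 2626 on the wild-type arrays. Its within-pair ratios were almost equal, at 0.519 and 0.515, while its difference of -0.94 ± 0.28 did not pass without the pairs (adjusted p = 0.220; 0.0128 with the block).

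The probe set 1455165_at of Rora read 929 and 904 on the labelled-deficient arrays, against 2173 and 1738 on the wild-type arrays (difference -1.07 ± 0.24, limma adjusted p = 0.0988; 0.00874 with the replicate block). The probe set 1420583_a_at read 533 and 704 on the labelled-deficient arrays, against 1280 and 1285 on the wild-type arrays (-1.04 ± 0.26, 0.132; 0.0160 with the block). In both, the wild-type arrays were well separated from the labelled-deficient ones. The remaining tested Rora probe sets had the smallest differences, -0.81 ± 0.30 for 1436326_at and -0.72 ± 0.28 for 1458129_at, and passed in neither fit (0.0625 and 0.156 with the block). Of the 3 Rora probe sets below the filter, 1424035_at and 1458145_at read 12.0 or less on every array. The third, 1441085_at, went against the others, with 40.5 and 24.0 on the labelled-deficient arrays against 6.38 and 5.60 on the wild-type arrays; it was not tested, and its adjusted p was 0.348 in the fit without a filter.

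Maf encodes c-MAF, a basic leucine zipper factor that drives Il10 and Il21 in T cells, and 5 of its 6 probe sets were tested. On all 5 both labelled-deficient arrays were below both wild-type arrays. The brightest, 1456060_at, read 7260 and 7178 on the labelled-deficient arrays, against 13660 and 12488 on the wild-type arrays. Arrays of one label differed little here, and the difference was -0.85 ± 0.18 (limma adjusted p = 0.0729; 0.0138 with the replicate block). It passed (0.0440) when each gene was tested by 1 probe set only, which lowers the number of tests. Probe set 1435828_at read 724 and 660 on the labelled-deficient arrays, against 1558 and 1507 on the wild-type arrays, a difference of -1.13 ± 0.24 (adjusted p = 0.0820; 0.00737 with the block).

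The probe set 1447849_s_at of Maf read 3382 and 5529 on the labelled-deficient arrays, against 7413 and 9859 on the wild-type arrays (difference -0.98 ± 0.27, limma adjusted p = 0.178; 0.00785 with the replicate block). The arrays of pair 2 were the brighter ones in both genotypes. Probe set 1444073_at read 412 and 965 on the labelled-deficient arrays, against 1140 and 1419 on the wild-type arrays (-0.99 ± 0.39, 0.398; 0.0432 with the block), and 1437473_at read 296 and 225 on the labelled-deficient arrays, against 821 and 369 on the wild-type arrays (-1.05 ± 0.40, 0.377; 0.0597 with the block). In these the arrays of one label spread widely, and leaving out 1 array moved the differences between -1.59 and -0.39 for 1444073_at and between -1.61 and -0.49 for 1437473_at. The Maf probe set below the filter, 1447945_at, read 4.22 and 3.58 on the labelled-deficient arrays and 10.4 and 57.2 on the wild-type arrays.

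Batf encodes a factor that binds DNA with JUN and IRF proteins and opens chromatin early in Th17 and effector Treg cells. Its single probe set read 1594 and 933 on the labelled-deficient arrays, against 1879 and 1951 on the wild-type arrays. The pairs differed, at 0.848 of the wild-type signal in pair 1 and 0.478 in pair 2. The difference of -0.64 ± 0.30 did not pass in either fit (limma adjusted p = 0.510; 0.152 with the replicate block), and it was -1.02 without labelled-deficient replicate 1 and -0.26 without labelled-deficient replicate 2.

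**Figure D2:**
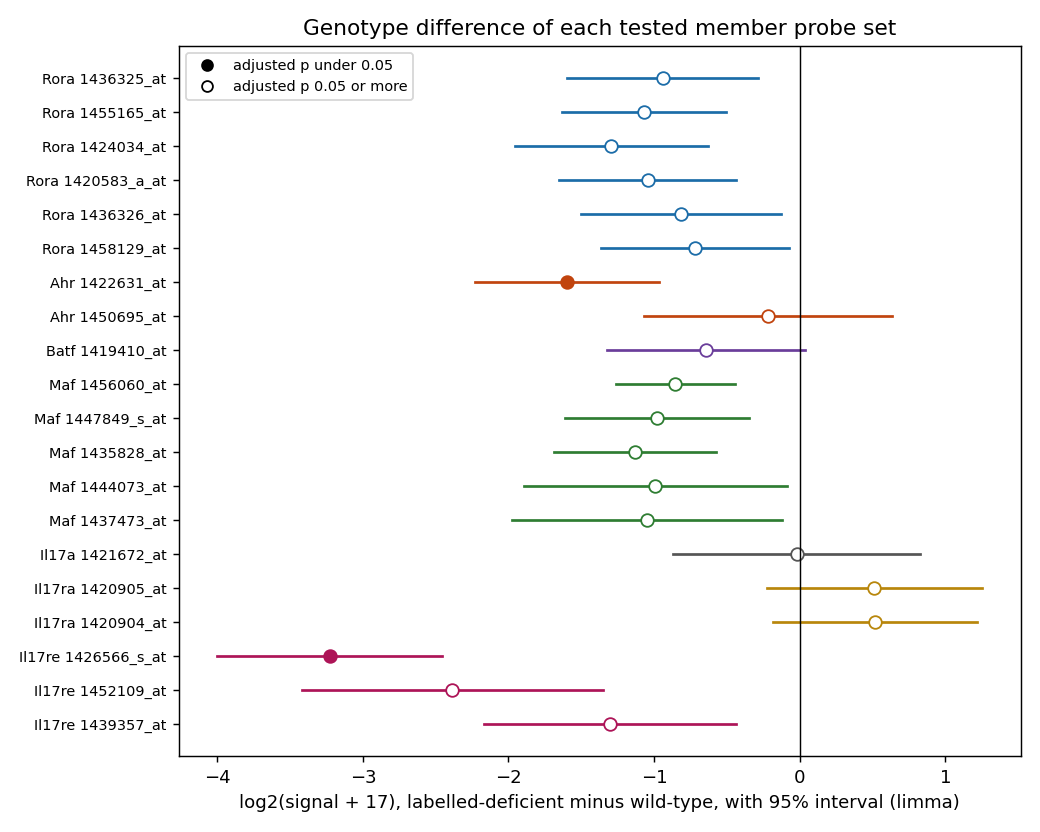
Difference of each tested member probe set (labelled-deficient minus wild-type, log2(signal + 17)), with its 95% interval from limma; filled points passed an adjusted p under 0.05. Of the 20 probe sets 18 lie below 0, led by Il17re 1426566_s_at at -3.23, and both Il17ra probe sets lie above it.

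Set by set, the groups did not overlap, with the labelled-deficient arrays lower, on 16 of the 20 tested probe sets: 6 of Rora, 5 of Maf, 3 of Il17re, 1 of Ahr and 1 of Batf. Over all tested probe sets 17.5% were separated in this direction. At least 2-fold lower in both pairs were 6 of the 20, namely the 3 of Il17re, Ahr 1422631_at, Rora 1424034_at and Maf 1435828_at, where 1.59% of all tested probe sets were. No test was applied to these counts.

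**Figure D3:**
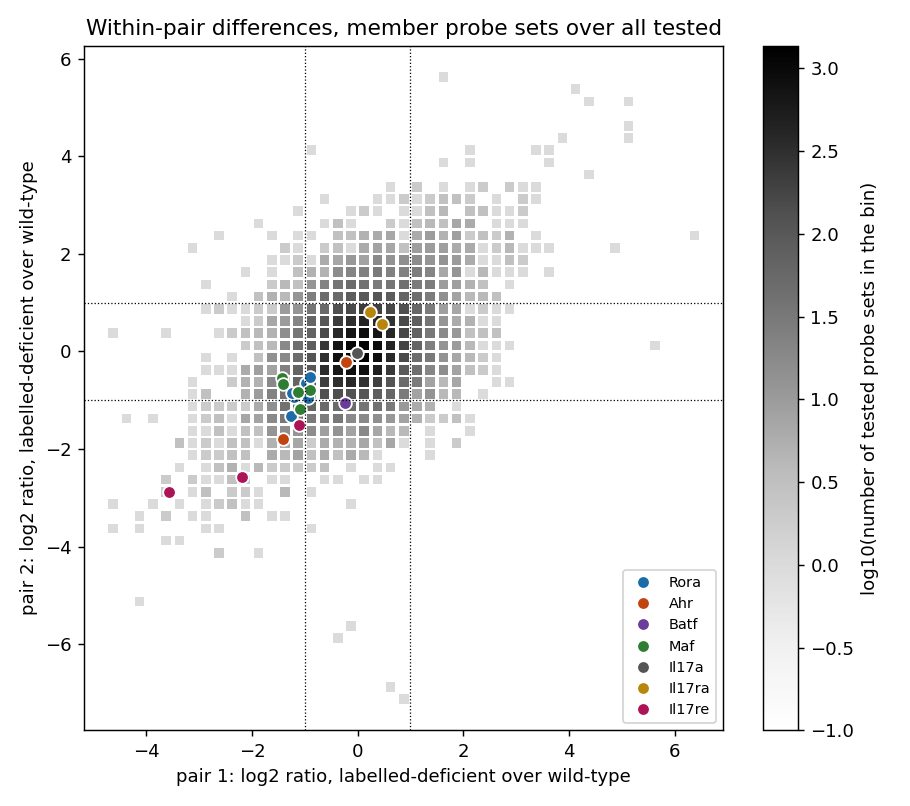
Log2 ratio of labelled-deficient over wild-type in pair 1 (horizontal) and pair 2 (vertical), for the member probe sets (colours by gene) over the number of tested probe sets per bin (grey squares, log10 scale); dotted lines mark 2-fold. The 3 Il17re probe sets lie beyond 2-fold lower in both pairs, most Rora and Maf probe sets gather around 2-fold lower, and Batf is lower in pair 2 (-1.05) more than in pair 1 (-0.24).

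The stretch of 250 bases before the annotated start was available from RefSeq for 6 of the 9 member genes (Rora, Batf, Il23r, Il17a, Il17f and Il17re). It was searched on both strands for GTAAACA, the core that FoxO factors bind, for TGANTCA, the element of BATF with JUN proteins, for GCGTG, the core bound by AHR, and for AGGTCA, the half-site bound by ROR factors. The windows of 3 genes are shown because they belong to the receptor gene with the largest difference, the ROR factor gene and its best-known cytokine target. Capitals mark the motifs found.
Il17re upstream window, GRCm38.p6 chr6:113458521-113458770, plus strand: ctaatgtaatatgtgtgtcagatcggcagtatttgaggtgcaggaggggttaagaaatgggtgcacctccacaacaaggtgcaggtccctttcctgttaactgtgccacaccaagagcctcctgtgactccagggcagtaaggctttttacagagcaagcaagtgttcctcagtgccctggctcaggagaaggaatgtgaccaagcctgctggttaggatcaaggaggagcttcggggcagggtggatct
Rora upstream window, GRCm38.p6 chr9:68653536-68653785, plus strand: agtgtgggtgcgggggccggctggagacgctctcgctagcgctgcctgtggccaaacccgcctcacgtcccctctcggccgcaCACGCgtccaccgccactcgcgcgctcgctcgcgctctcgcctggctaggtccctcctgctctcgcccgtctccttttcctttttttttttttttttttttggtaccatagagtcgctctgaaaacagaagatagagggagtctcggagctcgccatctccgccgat
Il17a upstream window, GRCm38.p6 chr1:20730655-20730904, plus strand: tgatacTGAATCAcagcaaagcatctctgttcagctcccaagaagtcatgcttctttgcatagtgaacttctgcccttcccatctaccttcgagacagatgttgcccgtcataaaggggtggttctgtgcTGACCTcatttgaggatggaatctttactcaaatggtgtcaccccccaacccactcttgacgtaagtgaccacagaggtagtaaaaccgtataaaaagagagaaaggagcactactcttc

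None of the 6 windows held GTAAACA, which 3.2% of all 32841 RefSeq windows of this length did. The Il17re window held none of the 4 motifs. The Rora window held GCGTG once, on the other strand, starting 167 bases before the annotated start, as did 28.2% of all windows. The half-site AGGTCA was found once each in Il17a and Il17f and at 2 places in Il23r, and in 14.0% of all windows. TGANTCA was found in Il17a alone among the 6, 244 bases before the start, and in 6.8% of all windows. A match of letters describes the sequence only and shows no binding.

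Around the members, 61 other genes of the Th17 programme, the IL-17 and IL-23 receptor systems and the partners and relatives of AHR, BATF, MAF and ROR were read from their brightest probe set. A probe set was named for 56 of them and 42 were tested. Lower were 4, Il1r1, Csf2, Il12rb1 and Bhlhe40, and 1 was higher, Il6st (limma), beside 0.529% and 0.633% of all tested probe sets. These shares count every tested probe set, while the genes were read from 1 probe set each. With 1 probe set per gene in the fit, 166 genes of 12115 were lower and 149 higher. In that fit 5 pathway genes were lower and 2 higher. Il1r1 and Csf2 passed the filter only through their wild-type signal, and neither call held without the filter (limma adjusted p = 0.0658 and 0.0901). With the replicate block 8 of the 42 were lower and 2 higher, where 2.61% of all tested probe sets were lower and 2.52% higher. The median log2 difference of the 42 was -0.27. By list, with some genes in more than 1, the calls without the block were 2 lower and 1 higher of 15 Th17 lineage genes, 1 lower of 5 IL-23 receptor partners and 1 lower of 4 ROR relatives. None passed of 6 genes of IL-17 ligands, receptors and adaptors, 4 of AHR partners and targets, 8 of BATF relatives and partners and 6 of the MAF family and its targets.

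Il12rb1 encodes the chain that the IL-23 receptor shares with the IL-12 receptor. It read 382 and 370 on the labelled-deficient arrays, against 2519 and 1923 on the wild-type arrays. The arrays of each label lay close together, and the difference of -2.50 ± 0.26 (limma adjusted p = 0.00736) passed under all 13 alternatives. The kinase gene Jak2, which acts downstream of this receptor, read 3668 and 4883 on the labelled-deficient arrays against 7209 and 7231 on the wild-type arrays, a difference of -0.77 ± 0.21 that passed with the replicate block only (adjusted p = 0.175; 0.0306 with the block). Its other tested probe set differed by -0.61 and passed in neither fit (0.502; 0.0829 with the block). Of the other signalling genes, Tyk2, Stat4 and Stat3 did not pass in either fit, at -0.57, -0.58 and -0.28, and Il23a, Il12b and Il12rb2 were below the filter.

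Among Th17 genes, Il1r1, the receptor for interleukin-1 that Th17 cells need, read 11.7 and 13.3 on the labelled-deficient arrays, against 291 and 241 on the wild-type arrays (difference -3.26 ± 0.36, limma adjusted p = 0.00818). Csf2, the gene of the cytokine GM-CSF, read 9.55 and 5.61 on the labelled-deficient arrays, against 149 and 165 on the wild-type arrays (-2.83 ± 0.38, 0.0152). Both signals were below the pseudocount and the filter on each labelled-deficient array, so both genes were tested only through their wild-type signal and the size of each difference depends on the pseudocount. With a pseudocount at the median of all values the difference was -1.95 for Il1r1 and -1.48 for Csf2, and with none it was -4.41 for Il1r1, while Csf2 was below the filter. Neither call held without the filter (0.0658 and 0.0901). The IL-6 receptor gives a signal that starts Th17 differentiation. Il6st, the gene of its signalling chain, was higher and read 4227 and 4600 on the labelled-deficient arrays, against 538 and 1315 on the wild-type arrays (2.36 ± 0.38, 0.0322), and missed the threshold without the filter (0.145), without the intensity trend (0.113) and with median centring (0.0504). The difference was 1.73 without wild-type replicate 1 and 3.00 without wild-type replicate 2. A second Il6st probe set was higher too (1.39, 0.0454), and the dimmest one tested did not pass (0.84, 0.487). Il6ra, the binding chain, read 2506 and 803 on the labelled-deficient arrays against 300 and 156 on the wild-type arrays (2.62 ± 0.53, 0.0665; 0.000386 with the replicate block), while its other tested probe set stood at 0.38 (0.839). Leaving out 1 array moved the first Il6ra difference between 1.81 and 3.43, and it passed without labelled-deficient replicate 2 (0.00430) and without wild-type replicate 1 (0.00956), as it did with 1 probe set per gene (0.0496).

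The factors STAT3, IRF4, HIF-1-alpha and JUNB, which act beside the members in Th17 cells, did not pass in either fit, with log2 differences of -0.28 for Stat3, 0.61 for Irf4, -0.27 for Hif1a and -0.29 for Junb. Irf8, a partner of BATF, read 1497 and 2180 on the labelled-deficient arrays against 4620 and 4252 on the wild-type arrays (-1.29 ± 0.25, limma adjusted p = 0.0590; 0.00458 with the replicate block), and its other probe set differed by -1.05 (0.168; 0.0238 with the block). Ccr6, the chemokine receptor of Th17 cells, differed by -0.07 ± 0.32.

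Of the genes that the members are known to regulate or resemble, Bhlhe40, a repressor that binds E-box elements in the clock network, was lower, at 524 and 503 on the labelled-deficient arrays against 2065 and 2759 on the wild-type arrays (difference -2.18 ± 0.26, limma adjusted p = 0.0102, past the threshold under all 13 alternatives). Nr1d1, which encodes a repressor at ROR elements, read 18.2 and 22.0 on the labelled-deficient arrays against 102 and 90.7 on the wild-type arrays. Its difference of -1.61 ± 0.37 did not pass (limma adjusted p = 0.105, and 0.0560 with the replicate block). Both labelled-deficient signals were below the filter of about 40.5, so Nr1d1 was tested only through its wild-type signal. Among AHR partners and targets 4 were tested and none passed: Tiparp differed by 0.10 ± 0.25, Arnt by -0.12 ± 0.38, Cyp1a1 by 0.29 ± 0.38 and Nqo1 by 0.01 ± 0.40. Il10, a target of MAF, differed by -0.17 ± 0.34 (adjusted p = 0.954). Il21, another target, read 8.23 and 80.5 on the labelled-deficient arrays against 237 and 312 on the wild-type arrays (-2.54 ± 0.60, 0.107; 0.00886 with the block). Its difference was -1.57 without labelled-deficient replicate 1 and -3.52 without labelled-deficient replicate 2. The signal of labelled-deficient replicate 1, 8.23, was below the pseudocount and the filter, so the size of the Il21 difference depends on the pseudocount. It was -1.60 with a pseudocount at the median of all values and -3.40 with none. The mean log2 value of the labelled-deficient arrays alone was below the filter, so Il21 was tested only through its wild-type signal. Its other probe set, 1447288_at, was below the filter. That one read 10.55 and 20.02 on the labelled-deficient arrays against 33.83 and 36.73 on the wild-type arrays. The small MAF gene Mafg read 237 and 221 on the labelled-deficient arrays against 526 and 489 on the wild-type arrays (-1.09 ± 0.28, 0.145; 0.0373 with the block), and its other tested probe set differed by -1.08 and passed in neither fit (0.233; 0.0702 with the block). The other IL-17 receptor genes did not pass: Il17rb differed by -0.57 ± 0.30 and Il17rd by -0.55 ± 0.39. Il17rd read 34.8 and 38.0 on the labelled-deficient arrays, below the filter, so it too was tested only through its wild-type signal. Il17rc, which pairs with the product of Il17ra to bind IL-17A, was below the filter at 10.8 or less on every array.

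**Figure D4:**
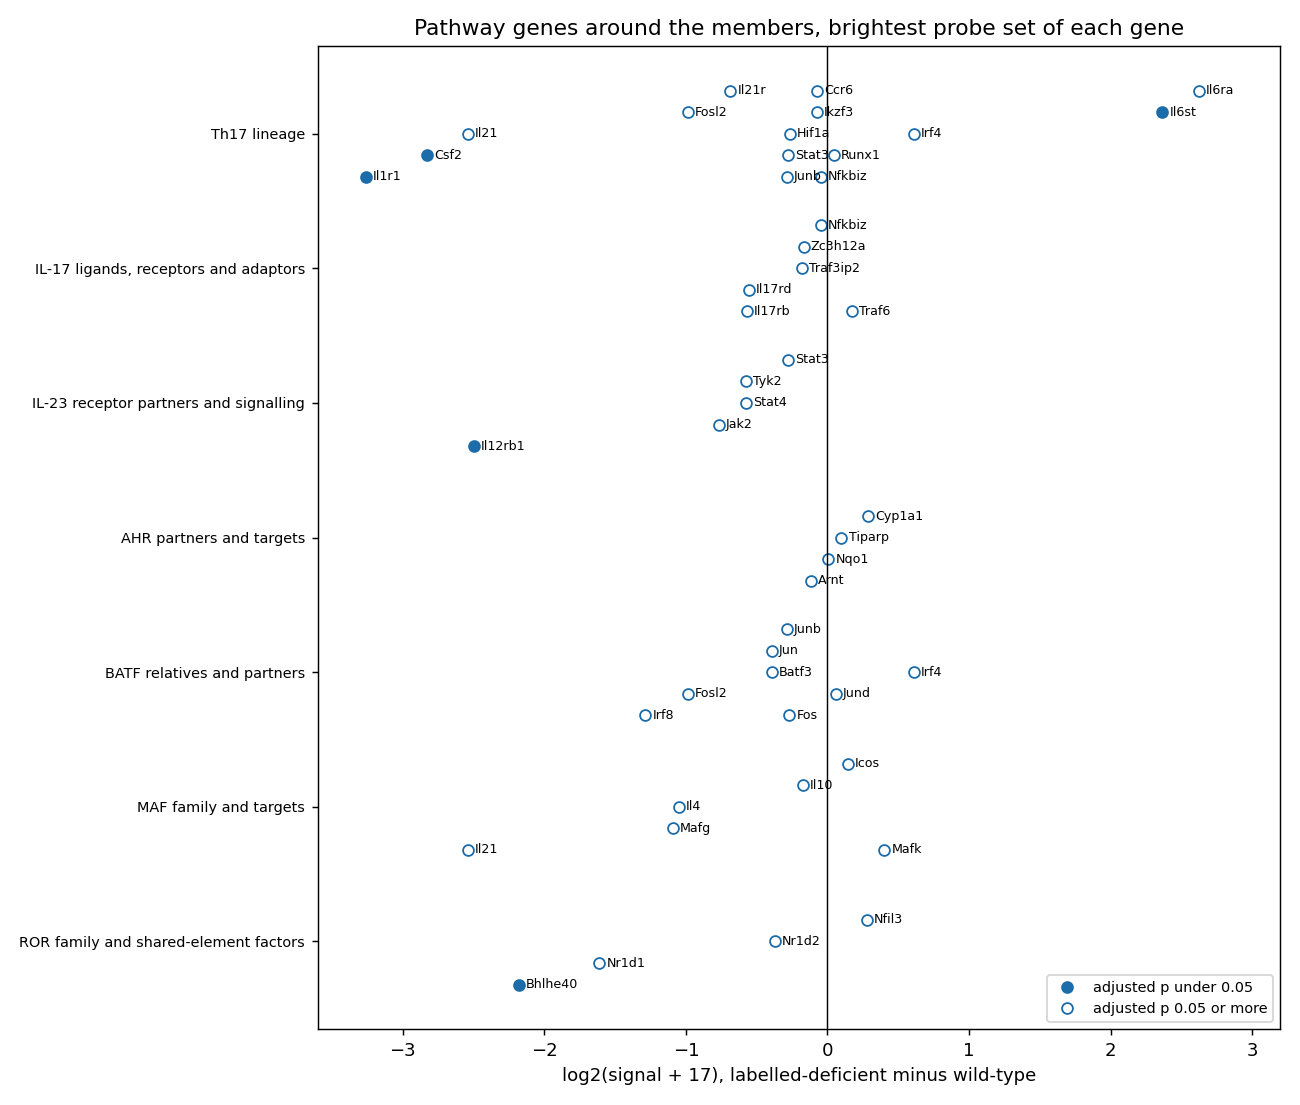
Difference (labelled-deficient minus wild-type, log2(signal + 17)) of the tested genes of each pathway list, 1 point a gene at its brightest probe set; filled points passed an adjusted p under 0.05, and a gene in more than 1 list appears in each. Il1r1 (-3.26), Csf2 (-2.83), Il12rb1 (-2.50) and Bhlhe40 (-2.18) are the filled points below 0, and Il6st (2.36) the one above. Il1r1 and Csf2 were tested only through their wild-type signal.

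The genes whose profile over the 4 arrays was most like that of a called member were found among 12108 genes by the Euclidean distance between log2 values centred on each gene's mean. Nearest to Ahr were Hpn (distance 0.083), Anxa4 (0.089) and Lrrc18 (0.211), with log2 differences of -1.62, -1.53 and -1.65. Nearest to Il17re were 5830411N06Rik (0.267), Misp3 (0.282) and Il1r1 (0.322), with log2 differences of -3.48, -3.12 and -3.26. The profiles hold the genotype difference, so log2 differences close to those of Ahr and Il17re follow from how these genes were chosen. Il1r1 was tested only through its wild-type signal. Distances over 4 arrays are a description of these arrays only.

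Macrophages and monocytes also express Maf and Ahr. Of 10 macrophage and monocyte markers 9 had a probe set and 8 were tested. None passed in the fit without pairs. With the replicate block 3 were higher (Adgre1, C1qb and Vcam1), where 2.52% of all tested probe sets were higher. Of the other markers, Csf1r, C1qa and Cd14 differed by 0.64, 0.75 and 0.50, Cd68 by 0.08 and Lyz2 by -0.14, and Itgam was below the filter. The summed signal of the 9, most of it from Csf1r and Vcam1, was 18021 and 12738 on the labelled-deficient arrays and 11346 and 7509 on the wild-type arrays. Of 8 markers of gamma-delta T cells and type 3 innate lymphoid cells, which use Rora and Ahr too, 5 had a probe set and 3 were tested; their summed signal overlapped, at 542 and 394 on the labelled-deficient arrays and 690 and 440 on the wild-type arrays. One of them, Cd163l1, read 74.2 and 50.6 on the labelled-deficient arrays against 256 and 182 on the wild-type arrays (-1.57 ± 0.36, limma adjusted p = 0.104; 0.0298 with the block). Blk and Kit overlapped between the groups and passed in neither fit, at 0.57 and -0.19, and Sox13 and Ncr1, below the filter, overlapped too, with Sox13 at 1.95 and 1.58 times the wild-type signal within the pairs. Summed signals were 2869 and 1847 on the labelled-deficient arrays and 2585 and 829 on the wild-type arrays for the B cell markers read, of which Ms4a1 was higher with the replicate block only (0.89 ± 0.44, limma adjusted p = 0.569; 0.0456 with the block). They were 1352 and 1691 on the labelled-deficient arrays against 2250 and 2449 on the wild-type arrays for the markers of natural killer and CD8 T cells, of which Eomes was lower (-1.82 ± 0.28, limma adjusted p = 0.0302), a call lost without the filter (0.0901). Without Eomes the sums overlapped, at 996 and 1381 on the labelled-deficient arrays and 1214 and 1024 on the wild-type arrays, as did each of the other 4 markers. No marker was listed at 0, and the part of these cells in the members' differences was not tested.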

How the data were processed

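The authors deposited linear intensities, 1 per probe set and array. These are MAS5 signals, per the submitters' processing notes, which here give neither version nor settings. All arrays had a 2% trimmed mean of 500.0 and were not rescaled. Signals were taken as log2(signal + 17), 17 being the 25th percentile of all values, which understates the fold of dim probe sets. After 64 array controls were set aside, 27022 probe sets with a mean log2 value at or above the 40th percentile were tested, each by itself, with limma 3.58.1 in R 4.3.3 (two-sided, intensity trend, Benjamini-Hochberg adjustment, threshold 0.05). In the fit without the pairs the arrays left 2 residual degrees of freedom and the variance model shared over probe sets lent 6.17. The fit with the replicate block left 1 residual degree of freedom. Exact permutation of 2 against 2 arrays cannot go below p = 0.333.

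The titles number the pairs, and deviations from the group means correlated within pairs at 0.282 across probe sets, which are not independent. The blocked value is given where it bears on a call. The unblocked fit was tested on simulated data whose variances were drawn from limma's own model, which leaves other variance distributions untested. In those data most of the changes put in missed the threshold. Nothing says whether arrays came from separate animals, so p-values measure the spread between these arrays. The array annotation, which can be old, named 34945 probe sets for 1 gene. Named are all member probe sets, the pathway genes past the threshold, the 3 nearest profiles of each called member, and further pathway and marker genes chosen after their values were seen. The members and lists were chosen with earlier results of these data known. The alternatives were other pseudocounts, filters and scalings, no trend, 1 probe set per gene, the pair block and leaving out each array.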

Additional observations from a re-analysis of the deposited data

How the results depend on the processing

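The lower call of Il17re 1426566_s_at held under all 13 alternatives, and those of Il12rb1 and Bhlhe40 did too. With the replicate block (pairs), 11 member probe sets were lower, with 705 lower and 682 higher over all probe sets and 8 lower and 2 higher pathway genes; the 9 members added were 4 of Rora, 4 of Maf and 1 of Il17re. Without the filter 1 member probe set was lower, with 29 lower and 38 higher over all probe sets and 2 lower and 0 higher pathway genes (limma). Without the intensity trend 1 member probe set was lower, with 51 lower and 47 higher over all and 0 pathway genes higher. With the filter at the 60th percentile 2 pathway genes were lower. Median centring left 0 pathway genes higher, and testing 1 probe set per gene gave 2. Leaving out 1 array in turn left 1 residual degree of freedom, with a lone array assumed to vary like the other group; it gave 110 to 368 higher over all (368 without wild-type replicate 1) and 1 to 2 pathway genes higher. Il17a was the single tested member whose sign turned, at 0.0164 without labelled-deficient replicate 2 and 0.0040 without wild-type replicate 1, in a range of -0.0574 to 0.0164. The number of arrays, 2 a group, limits the precision of every value.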
